A study of Rattus norvegicus with 4 samples.

Results

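Collagen genes were examined in ventricular heart muscle cells taken from newborn rats and treated in culture with carfilzomib, an irreversible proteasome inhibitor used against multiple myeloma. The members are the rows of the expression table whose symbol is Col, a number, a and a number, which gave 44 chains among 18699 genes. The 2 RNA-seq libraries from cells given 1 µM carfilzomib for 24 h were compared with 2 libraries from cells given vehicle. All 4 came from wild-type Sprague Dawley rats aged 1 to 3 days, and the cells grew in medium with 15% fetal bovine serum and 0.1 mM bromodeoxyuridine, a nucleoside that holds back dividing cells other than cardiomyocytes, along with penicillin, streptomycin and L-glutamine. The sources do not say how many animals stand behind a library or whether the 2 libraries of a group were separate cultures, so every p-value weighs a difference against the spread of these 4 libraries alone, and that spread may be technical.

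Collagens are secreted proteins whose chains wind around each other into a helix, and each chain has its own gene. Fibrillar collagens form the cable-like fibres that carry tension between heart muscle cells, type IV collagen forms the sheet of the basement membrane around each cell, type VI collagen forms beaded filaments beside that membrane, and FACIT collagens (fibril-associated collagens with interrupted helices) sit on the surface of fibres. In the heart, fibroblasts make most fibrillar collagen, while basement membrane collagen also comes from endothelial, smooth muscle and heart muscle cells. Assembly of a collagen inside the cell needs enzymes that hydroxylate proline and lysine, the chaperone HSP47, and large transport vesicles. Outside the cell, proteinases trim fibrillar procollagen and lysyl oxidases cross-link it.

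The libraries held 18655477 to 18884362 estimated counts. CPM are a gene's counts relative to its library's total, per 1e6, scaled by TMM factors, FPKM are the authors' values per gene length and library size, and fold changes are carfilzomib over vehicle on the log2 scale with their SE. A gene was called at a Benjamini-Hochberg adjusted p under 0.05 in edgeR's quasi-likelihood test over all 14519 genes tested. All 18 cardiomyocyte markers looked for were tested, with a summed level of 14152 and 13638 CPM in the carfilzomib libraries, against 40390.3 and 40436 CPM in the vehicle libraries. Col1a1 had the most counts of any gene in each of the 4 libraries.

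Of 44 collagen chains 38 were tested; 32 fell with carfilzomib, 2 rose and 4 did not pass; over all genes tested 60.7% were called in either direction. The 32 that fell are 84.2% of the chains tested, where 30.1% of all genes tested were called lower, and the 2 that rose are 5.26%, where 30.6% of all genes were called higher. The median log2 fold change of the tested chains was -0.84, against 0.00 over all genes. A fall of at least 2-fold was called for 14 of the 38 chains and for 7.38% of all genes tested. Both carfilzomib libraries lay below both vehicle libraries in 32 of the 38 tested chains, the same ones that were called lower, and in 40.0% of all genes tested. Both lay above the vehicle libraries in 3 of the tested chains, an order found in 39.8% of all genes tested: Col4a5 and Col7a1, which were called, and Col6a5, which was not. Collagen RNA made up 2.41% and 2.33% of all counts with carfilzomib and 4.03% and 4.07% with vehicle.

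By structural type, all 11 fibrillar chains fell, with a median of -0.86. Of 6 basement membrane chains 5 fell and 1 rose, with a median of -0.62. Among the beaded chains 4 of 5 tested fell, with a median of -0.91, and among the FACIT chains 6 of 7 tested fell, with a median of -1.02. The types' medians were not tested against each other. With any 1 library left out the low-count filter was rerun, so the chains that enter a median can differ. The FACIT median was then -0.87 to -0.72, smaller in size than the beaded median of -0.99 to -0.89. The FACIT chains of 10 CPM or more moved little. Col12a1 was at -1.10 to -0.94, Col14a1 at -1.05 to -1.01 and Col16a1 at -0.38 to -0.34. Summed per length, the fibrillar chains stood at 3129 and 2985 FPKM in the carfilzomib libraries, against 5407 and 5482 FPKM in the vehicle libraries. Their share of all collagen FPKM was 73.2% and 72.6% with carfilzomib and 75.2% and 75.4% with vehicle. The share of the type IV chains was 18.5% and 18.9% with carfilzomib and 15.7% and 15.7% with vehicle, so basement membrane chains were a larger part of the collagen RNA in both treated libraries. In RNA of a whole culture, fewer cells of a type and less RNA per cell cannot be told apart. Of 17 fibroblast markers other than collagens 12 were called lower, with a median of -0.36, while their summed FPKM overlapped between the groups, and their part in the collagen result was not tested.

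**Figure D1:**
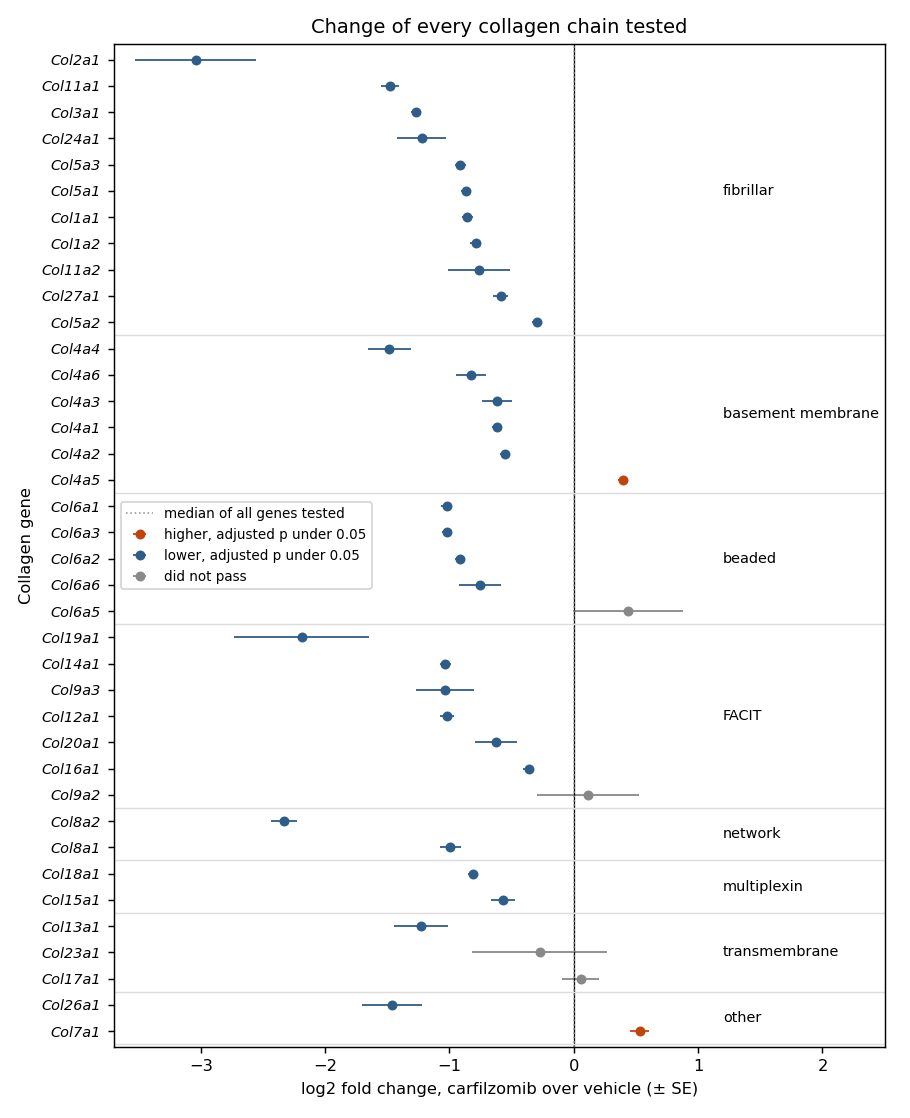
Log2 fold change (carfilzomib over vehicle) with its SE for each of the 38 collagen chains tested, grouped by structural type; colours give the call by edgeR and the dotted line the median of all genes tested. Of the chains, 32 lie left of 0 and were called, Col4a5 and Col7a1 lie right of 0 and were called, and 4 did not pass.

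The fibrillar chains of type I, the main collagen of scar and of the heart's fibre network, led the fibrillar chains. Col1a1 had 11156 and 10589.7 CPM in the carfilzomib libraries, against 19415 and 19926 CPM in the vehicle libraries. Col1a2, which encodes the other chain of the type I molecule, had 2438 and 2239 CPM in the carfilzomib libraries, against 4023 and 4063 CPM in the vehicle libraries. Both treated libraries were far below both vehicle libraries for the 2 genes, and the log2 fold changes were -0.86 ± 0.04 for Col1a1 and -0.79 ± 0.04 for Col1a2 (edgeR adjusted p = 2.11e-10 and 9.40e-10). Col1a1 alone gave 45.7% and 45.1% of all collagen FPKM with carfilzomib and 46.3% and 46.8% with vehicle. Col3a1 encodes the single chain of type III collagen, which joins type I in compliant fibres. It was at 1357 and 1385 CPM in the carfilzomib libraries, against 3294 and 3331 CPM in the vehicle libraries. Its fall of -1.27 ± 0.04 was larger in size than that of either type I chain, and its vehicle libraries stood more than a factor of 2 above the treated ones (edgeR adjusted p = 9.24e-13).

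Type V and type XI collagens start fibres and set their width, and their chains differed among themselves. Col5a1 was at 932 and 903 CPM in the carfilzomib libraries, against 1690.3 and 1649.8 CPM in the vehicle libraries, and Col5a3 at 149 and 139.6 CPM in the carfilzomib libraries, against 264 and 279 CPM in the vehicle libraries. These 2 chains had log2 fold changes of -0.86 ± 0.04 and -0.91 ± 0.05. Col5a2, whose product joins that of Col5a1 in the common type V molecule, had 1016 and 1001 CPM in the carfilzomib libraries, against 1248 and 1234 CPM in the vehicle libraries. Its libraries did not overlap either, but at -0.30 ± 0.04 it had the smallest change in size of the 11 fibrillar chains (edgeR adjusted p = 6.91e-06). Col11a1, best known from cartilage, was low, at 14.9 and 15.4 CPM in the carfilzomib libraries, against 42.9 and 41.4 CPM in the vehicle libraries, and its log2 fold change was -1.48 ± 0.07 (edgeR adjusted p = 1.61e-10). Col27a1, a fibrillar chain of cartilage, fell to 33.3 and 31.9 CPM with carfilzomib, against 49.6 and 48.4 CPM with vehicle, a change of -0.59. The remaining fibrillar chains were under 10 CPM. Col24a1, a chain of developing bone, fell by 1.22 on the log2 scale, with 43 and 45 counts with carfilzomib and 114 and 87 with vehicle. Col2a1, the main collagen of cartilage, had 4 and 2 counts with carfilzomib and 27 and 23 with vehicle, and a log2 fold change of -3.04 ± 0.49. Col11a2 had 44 and 32 counts with carfilzomib and 72 and 54 with vehicle, and its call (edgeR adjusted p = 0.015) was lost without carfilzomib replicate 2 (edgeR adjusted p = 0.12), without vehicle replicate 1 (0.182) and under DESeq2 (0.135).

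Type IV collagen has 6 chain genes, which lie in head-to-head pairs on chromosomes 16 (Col4a1 and Col4a2), 9 (Col4a3 and Col4a4) and X (Col4a5 and Col4a6), so that the genes of a pair start near each other and run apart. In the RefSeq tables for GRCr8, a later rat build than the authors' Rnor_6.0, the 2 annotated starts are 77 bases apart for Col4a1 and Col4a2, 413 for Col4a3 and Col4a4 and 1415 for Col4a5 and Col4a6. The promoter windows of Col4a1 and Col4a2, which both fell, and of Col4a5 and Col4a6, which parted, follow. Each runs from 250 bases before to 50 bases after the start, with CCAAT or its reverse complement ATTGG in capitals. Col4a3 and Col4a4 also both fell, and their windows are not printed. Col4a1 lies at chr16:84885347-84885646 on the plus strand, Col4a2 at chr16:84885471-84885770 on the minus strand, Col4a5 at chrX:109907109-109907408 on the plus strand and Col4a6 at chrX:109905895-109906194 on the minus strand.
Col4a1: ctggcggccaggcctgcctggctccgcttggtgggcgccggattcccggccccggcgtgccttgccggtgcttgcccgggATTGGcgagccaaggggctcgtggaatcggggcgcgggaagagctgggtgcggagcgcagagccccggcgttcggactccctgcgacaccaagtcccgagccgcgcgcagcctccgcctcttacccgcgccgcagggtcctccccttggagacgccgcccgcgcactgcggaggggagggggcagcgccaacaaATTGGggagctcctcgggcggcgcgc
Col4a2: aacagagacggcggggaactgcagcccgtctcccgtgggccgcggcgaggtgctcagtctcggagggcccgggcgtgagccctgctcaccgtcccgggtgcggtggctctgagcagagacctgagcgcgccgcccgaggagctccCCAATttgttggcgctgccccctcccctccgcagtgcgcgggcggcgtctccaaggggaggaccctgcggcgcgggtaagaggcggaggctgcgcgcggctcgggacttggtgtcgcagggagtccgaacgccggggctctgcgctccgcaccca
Col4a5: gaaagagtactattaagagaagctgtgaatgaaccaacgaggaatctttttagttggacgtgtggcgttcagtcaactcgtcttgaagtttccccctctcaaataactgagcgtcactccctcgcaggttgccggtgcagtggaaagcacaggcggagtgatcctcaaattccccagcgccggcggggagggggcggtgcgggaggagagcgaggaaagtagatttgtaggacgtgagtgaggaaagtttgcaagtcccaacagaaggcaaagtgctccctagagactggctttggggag
Col4a6: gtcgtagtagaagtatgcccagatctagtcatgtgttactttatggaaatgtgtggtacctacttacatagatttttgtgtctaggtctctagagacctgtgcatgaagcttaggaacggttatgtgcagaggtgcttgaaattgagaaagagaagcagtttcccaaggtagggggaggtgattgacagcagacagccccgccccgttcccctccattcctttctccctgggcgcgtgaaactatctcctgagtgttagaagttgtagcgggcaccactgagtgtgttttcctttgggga
The Col4a1 and Col4a2 windows share 176 bases, and the CCAAT found 105 bases before the start of Col4a2 is the same site as the ATTGG that begins 25 bases into Col4a1. The Col4a5 and Col4a6 windows share 0 bases and hold no CCAAT on either strand. The Col4a3 and Col4a4 windows share 88 bases and hold no CCAAT on either strand either, although both genes fell. GGGCGG occurs in the Col4a3 window, and the Col4a4 window holds neither it nor its reverse complement. All 4 printed windows hold GGGCGG or its reverse complement CCGCCC, the GC box, and no such site overlaps a CCAAT site. None of the printed windows holds TATAAA on either strand. Among the 35 collagen genes with a promoter in the table, 11 have CCAAT, 19 have GGGCGG and 4 have TATAAA on either strand, which is 31.4%, 54.3% and 11.4%. Over all 27457 genes of the table the shares are 39.6%, 36.0% and 15.3%, and over its 33469 windows, of which a gene can have several, 37.5%, 33.1% and 14.2%. These matches describe letters in the windows and were not tied to the changes in RNA.

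Col4a1 and Col4a2, whose chains form the basement membrane of most tissues, were among the most abundant collagen genes by CPM. Col4a1 had 2812 and 2771 CPM in the carfilzomib libraries, against 4280.2 and 4291 CPM in the vehicle libraries. Col4a2 had 2029 and 1972 CPM in the carfilzomib libraries, against 2892 and 2975 CPM in the vehicle libraries. They fell by similar amounts, with log2 fold changes of -0.62 ± 0.04 and -0.55 ± 0.04 (edgeR adjusted p = 2.73e-09 and 1.37e-08), and neither gene's groups overlapped. Col4a5, which joins with Col4a3 and Col4a4 in the membrane of kidney and inner ear and with Col4a6 in that of smooth muscle, went the other way. It had 209 and 207 CPM in the carfilzomib libraries, against 159 and 158 CPM in the vehicle libraries. All treated values were above all vehicle values, and the log2 fold change was 0.39 ± 0.04 (edgeR adjusted p = 1.02e-06). Its neighbour Col4a6 had 6.45 and 6.52 CPM in the carfilzomib libraries, against 11.2 and 11.7 CPM in the vehicle libraries. That is a log2 fold change of -0.82 ± 0.12 in the opposite direction (edgeR adjusted p = 2.91e-05). Col4a3 was at 6.87 and 7.20 CPM with carfilzomib and 11.0 and 10.7 CPM with vehicle, a change of -0.62 ± 0.12. Col4a4 was at 2.46 and 2.91 CPM with carfilzomib and 8.08 and 6.98 CPM with vehicle, a change of -1.48 ± 0.17. Summed over the 6 chains, type IV RNA stood at 792 and 778 FPKM in the carfilzomib libraries, against 1130.3 and 1139 FPKM in the vehicle libraries, so the rise of Col4a5 was small beside the fall of Col4a1 and Col4a2. The authors' FPKM of Col4a4 rest on a gene length of about 1103 bases, against 5338 for Col4a3, so its level per length is not comparable with the others.

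**Figure D2:**
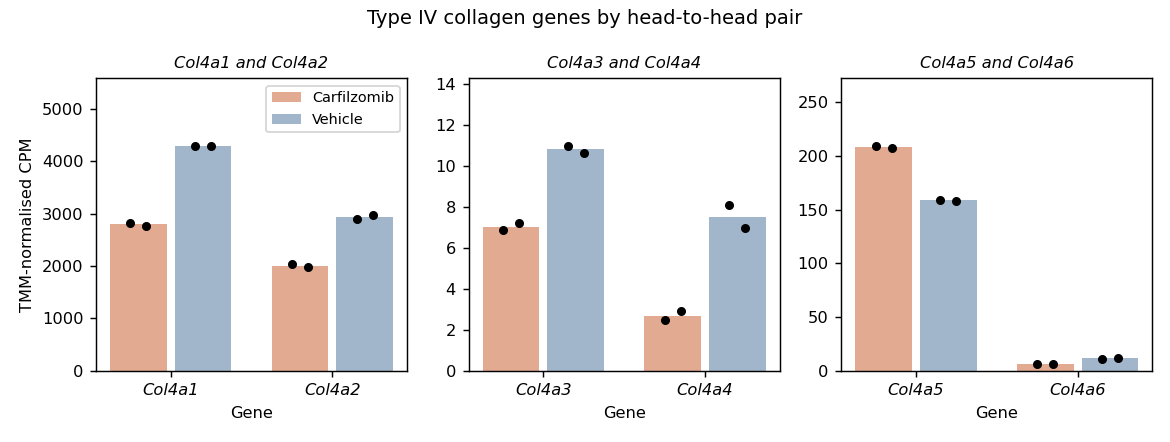
TMM-normalised CPM of the 6 type IV collagen genes, 1 panel for each head-to-head pair with its own axis from 0; bars are group means and points the 2 libraries of a group. Carfilzomib bars are lower than vehicle bars in 5 genes and higher in Col4a5.

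Type VI collagen forms beaded filaments that link cells to the surrounding matrix, and its main molecule is built from the products of Col6a1, Col6a2 and Col6a3. Col6a1 had 317 and 329.6 CPM in the carfilzomib libraries, against 649.5 and 665 CPM in the vehicle libraries. Col6a2 had 405 and 395 CPM in the carfilzomib libraries, against 744 and 761 CPM in the vehicle libraries. Col6a3 had 109 and 110.2 CPM in the carfilzomib libraries, against 225 and 220.2 CPM in the vehicle libraries. In each of these genes the treated libraries were well below the vehicle ones, and the log2 fold changes of -1.02 ± 0.04, -0.91 ± 0.04 and -1.02 ± 0.04 lay close together. Col6a6, a later-described chain that can take the place of the Col6a3 product, was at 7.02 and 4.66 CPM with carfilzomib and 9.48 and 10.3 CPM with vehicle, a change of -0.76 ± 0.17 (edgeR adjusted p = 0.00153). Col6a5 did not pass, with 13 and 12 counts with carfilzomib and 8 and 10 with vehicle and a log2 fold change of 0.43 ± 0.44. Col6a4 had 1 and 0 counts with carfilzomib and 0 and 2 with vehicle and was not tested.

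FACIT collagens decorate fibres and do not form fibres of their own. Col12a1, which binds type I fibres in tissues under load, had 250.4 and 269 CPM in the carfilzomib libraries, against 557 and 498 CPM in the vehicle libraries. Col14a1, a related chain found with it, had 133 and 137 CPM in the carfilzomib libraries, against 279.9 and 274 CPM in the vehicle libraries. Their log2 fold changes were -1.02 ± 0.06 and -1.03 ± 0.04 (edgeR adjusted p = 2.86e-08 and 2.43e-11), and no treated library reached a vehicle library. Col16a1, which occurs in fibres and near basement membranes, had 113 and 116 CPM in the carfilzomib libraries, against 145 and 149.7 CPM in the vehicle libraries. Its change of -0.36 ± 0.05 was smaller in size, and its groups also stayed apart. Of the FACIT chains under 10 CPM, Col9a3, a chain of the type IX collagen of cartilage, had 37 and 29 counts with carfilzomib and 68 and 64 with vehicle and a log2 fold change of -1.03 ± 0.23. Col20a1 had 66 and 82 counts with carfilzomib and 114 and 109 with vehicle, and its call (edgeR adjusted p = 0.00501) was lost without carfilzomib replicate 1 (edgeR adjusted p = 0.072) and under DESeq2 (0.0864). Col19a1 had 5 and 2 counts with carfilzomib and 14 and 18 with vehicle. Its log2 fold change of -2.19 became -2.95 without carfilzomib replicate 1, and its call was lost without carfilzomib replicate 2 (edgeR adjusted p = 0.0525), without vehicle replicate 2 (0.072) and under DESeq2 (0.0616). Col9a2, another type IX chain, had 24 and 17 counts with carfilzomib and 11 and 26 with vehicle and did not pass, at 0.11 ± 0.41.

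Among the other types, the short-chain network collagen of type VIII, which is made by vascular and remodelling tissue, held the chain with the largest fall of those at 10 CPM or more. Col8a2 had 17.5 and 13.3 CPM in the carfilzomib libraries, against 74.9 and 80.2 CPM in the vehicle libraries. Col8a1 had 14.7 and 15.2 CPM in the carfilzomib libraries, against 31.7 and 27.8 CPM in the vehicle libraries. The log2 fold change was -2.33 ± 0.10 for Col8a2 (edgeR adjusted p = 5.08e-08) and -0.99 ± 0.09 for Col8a1 (edgeR adjusted p = 1.17e-07), and the treated libraries were lower throughout. Col18a1 encodes a basement membrane collagen with heparan sulfate chains whose end piece is endostatin. It had 280.2 and 266 CPM in the carfilzomib libraries, against 476 and 484 CPM in the vehicle libraries. Col15a1, its close relative, had 29.2 and 36.6 CPM in the carfilzomib libraries, against 47.2 and 50.2 CPM in the vehicle libraries. Both of these multiplexins, collagens whose helix is broken many times, fell, by 0.81 ± 0.04 and 0.57 ± 0.10 on the log2 scale. Col7a1, the chain of the anchoring fibrils that hold skin to its basement membrane, was the other chain that rose. It had 29.0 and 28.6 CPM in the carfilzomib libraries, against 19.5 and 20.5 CPM in the vehicle libraries. Its groups did not overlap, and the log2 fold change was 0.53 ± 0.07 (edgeR adjusted p = 1.85e-05).

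Membrane-spanning collagens were scarce. Col13a1, which sits at cell-matrix contacts and the nerve-muscle junction, had 33 and 33 counts with carfilzomib and 77 and 74 with vehicle and fell by 1.23 on the log2 scale. Col17a1, a hemidesmosome protein of skin, had 127 and 117 counts with carfilzomib and 106 and 123 with vehicle, and its groups overlapped. Col23a1 had 17 and 5 counts with carfilzomib and 9 and 17 with vehicle, which overlapped as well. Their log2 fold changes of 0.06 ± 0.15 and -0.27 ± 0.54 did not pass (edgeR adjusted p = 0.762 and 0.684). Col26a1 had 27 and 25 counts with carfilzomib and 77 and 63 with vehicle, a change of -1.46 ± 0.24. Besides Col6a4, 5 more chains held too few reads to be tested. These were Col10a1, Col22a1, Col9a1, Col25a1 and Col28a1, each with at most 11 counts in any library. Col28a1 had 0 and 0 counts with carfilzomib and 4 and 1 with vehicle, and Col9a1 had 1 and 1 counts with carfilzomib and 8 and 5 with vehicle. Of the 38 tested chains 7 had estimated counts with decimals, which may reflect reads shared with other genes, and they are Col1a2, Col4a3, Col6a5, Col6a6, Col11a2, Col15a1 and Col23a1.

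The authors' deposited table, which lists genes with a DESeq2 q-value up to 0.0499, holds 30 of the 44 chains, 28 lower and 2 higher with carfilzomib. All 30 were called in the same direction by edgeR here, and 4 chains called here are absent from it: Col9a3, Col11a2, Col19a1 and Col20a1. In the authors' deposited table the log2 fold change of Col4a5 is 0.40 and that of Col7a1 0.53.

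Chains that join in 1 protein, or that belong to related collagens, can be compared as a ratio of FPKM within each library. Col3a1 over Col1a1, Col15a1 over Col18a1 and Col4a5 over Col4a1 set chains of different molecules side by side. Over 11 pairs the exact two-sided permutation test over 4 libraries cannot give a p below 0.333 (0.367 after Benjamini-Hochberg adjustment over the pairs), so the ratios are given as values with the SD within groups, and the pairs of Col4a5 and of Col4a3 were chosen after their values were seen. Col1a1 over Col1a2 was 3.50 and 3.62 with carfilzomib and 3.69 and 3.75 with vehicle. Col4a1 over Col4a2 was 1.36 and 1.38 with carfilzomib and 1.45 and 1.42 with vehicle. In both pairs the treated values were slightly below the vehicle values, with log2 differences of -0.06 ± 0.03 and -0.07 ± 0.02. Col6a1 over Col6a3 was 7.01 and 7.24 with carfilzomib and 7.02 and 7.33 with vehicle, and its groups overlapped (exact permutation p = 0.667). Col6a1 over Col6a2 was 0.700 and 0.748 with carfilzomib and 0.780 and 0.782 with vehicle. In the Col1a1 and Col1a2, Col4a1 and Col4a2, and type VI pairs the mean ratio was thus within 0.11 on the log2 scale of the vehicle mean.

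Other pairs differed more between the groups. Col5a1 over Col5a2 was 0.741 and 0.723 with carfilzomib and 1.10 and 1.07 with vehicle, so the order of the 2 chains per length was the reverse of that in vehicle. Col8a1 over Col8a2 was 1.28 and 1.79 with carfilzomib and 0.648 and 0.545 with vehicle, with the same turn of order. The log2 differences of these pairs were -0.56 ± 0.02 and 1.35 ± 0.27. Col3a1 over Col1a1, the balance of type III to type I, was 0.149 and 0.160 with carfilzomib and 0.208 and 0.205 with vehicle. It was lower in both treated libraries, by 0.42 on the log2 scale. Col15a1 over Col18a1 was 0.100 and 0.133 with carfilzomib and 0.0956 and 0.100 with vehicle, a difference of 0.24 ± 0.20 that carfilzomib replicate 2 largely set, since it was 0.04 without that library. Within type IV, Col4a5 over Col4a1 was 0.0746 and 0.0751 with carfilzomib and 0.0372 and 0.0370 with vehicle. Col4a5 over its neighbour Col4a6 was 26.4 and 26.0 with carfilzomib and 11.5 and 10.9 with vehicle. Both ratios were about a factor of 2 higher in the treated libraries, with log2 differences of 1.01 ± 0.01 and 1.22 ± 0.04. Col4a3 over Col4a4 was 0.575 and 0.521 with carfilzomib and 0.270 and 0.316 with vehicle. The size of this last ratio rests on the length of about 1103 bases used for Col4a4, against 5338 for Col4a3. It therefore does not tell which of the chains was more abundant, and in CPM Col4a3 was above Col4a4 in every library.

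**Figure D3:**
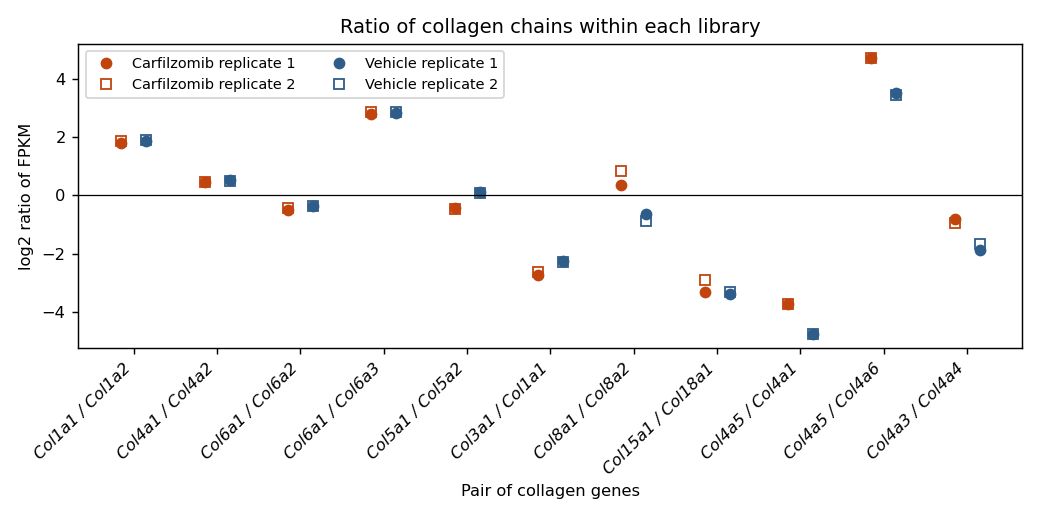
Log2 ratio of the FPKM of 2 collagen genes in each of the 4 libraries for 11 pairs; filled circles are replicate 1 and open squares replicate 2. Carfilzomib and vehicle values lie close together for the chains of type I, the Col4a1 and Col4a2 pair and type VI, and apart for Col5a1 over Col5a2, Col8a1 over Col8a2 and the pairs with Col4a5.

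Genes that make, carry, trim, bind or break down collagen were counted in 10 lists, which together hold 138 tested genes counted once each. Of these 93 fell, 20 rose and 25 missed the threshold, which is 67.4% lower and 14.5% higher. For these lists as for the chains, the shares over all genes tested are 30.1% lower and 30.6% higher. Their median log2 fold change was -0.39, against 0.00 over all genes. Of the 15 enzymes that hydroxylate or glycosylate the chains, with their cofactors, 10 fell and 5 missed the threshold (median -0.30). P3h4, a partner of lysyl hydroxylation, had 63.3 and 62.2 CPM with carfilzomib and 99.5 and 106 CPM with vehicle. P4ha3, a catalytic subunit of prolyl hydroxylase, had 25.0 and 24.1 CPM with carfilzomib and 36.3 and 41.5 CPM with vehicle. They fell by 0.71 and 0.67 on the log2 scale. Both are among the 39 of these 138 genes that have estimated counts with decimals, against 5219 of all 14519 genes tested. Trappc2, Adamts2, Loxl1, Loxl4, Itga11, Fmod, Lama1 and Tead4, named below, are also among them. Of the markers named below, Acta2, Flt1, Lyz2, Cd14, Myh6 and Actc1 have decimals too.

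Of 16 tested genes of folding and export 6 were lower, 6 higher and 4 not past the test, shares of 37.5% lower and 37.5% higher that are near the 30.1% and 30.6% of all genes, with a median of 0.04 whose sign turned when carfilzomib replicate 2 or vehicle replicate 2 was left out. Serpinh1, which encodes the collagen chaperone HSP47, had 1409.9 and 1425 CPM with carfilzomib and 2058 and 2150.4 CPM with vehicle. It fell by 0.57 on the log2 scale (edgeR adjusted p = 1.06e-08). Creb3l1, a membrane-bound transcription factor that drives collagen genes in mouse bone, fell by 0.90, at 175 and 162 CPM with carfilzomib and 293 and 335 CPM with vehicle. Trappc2, a subunit of a vesicle tethering complex needed for procollagen export, rose by 1.31, at 22.7 and 23.6 CPM with carfilzomib and 9.53 and 9.15 CPM with vehicle. The members that rose are Trappc2, Sar1b, Tmem38b, Sec13, Mia2 and Mia3, which act in vesicle transport or, for Tmem38b, in ion flux across the endoplasmic reticulum.

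Outside the cell, 5 of 6 tested procollagen proteinases and enhancers fell and 1 did not, with a median of -0.70. Pcolce, which speeds the trimming of procollagen, had 261 and 279.6 CPM with carfilzomib and 524 and 574 CPM with vehicle. Adamts2, which removes the front propeptide, had 113 and 108 CPM with carfilzomib and 224 and 223 CPM with vehicle. Their log2 fold changes were -1.02 ± 0.05 and -1.02 ± 0.04, with groups that did not overlap. Of 5 lysyl oxidases, Lox fell by 0.57 at 264 and 273 CPM with carfilzomib and 404 and 390.3 CPM with vehicle, and Loxl4 rose by 0.64 at 48.5 and 47.7 CPM with carfilzomib and 33.0 and 28.7 CPM with vehicle. Loxl1, Loxl2 and Loxl3 did not pass, at -0.12, -0.00459 and 0.15, and the family's median was -0.00459, close to 0 and above it under some settings. Of 8 tested collagen receptors 5 fell, 1 rose and 2 did not pass (median -0.30). Itga11 and Itga1, integrin chains that bind fibrillar and basement membrane collagen, fell by 0.84 and 0.73. Ddr1, a receptor kinase for collagen, rose by 0.33, at 234 and 234 CPM with carfilzomib and 181 and 192 CPM with vehicle.

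Among matrix metalloproteinases, cathepsin K and their inhibitors, 9 of 14 tested genes fell, 3 rose and 2 missed the threshold (median -0.31). Mmp23 fell by 0.73 and Ctsk, a collagen-cutting lysosomal proteinase, by 0.66. Mmp19 rose by 0.73, at 64.9 and 65.8 CPM with carfilzomib and 40.2 and 38.6 CPM with vehicle. Of 23 proteins that bind fibres or lie beside them 19 fell, 1 rose and 3 missed the threshold (median -0.88), close to that of the chains. Fmod, fibromodulin, which controls fibre assembly, had 7.29 and 7.26 CPM with carfilzomib and 34.1 and 34.5 CPM with vehicle. Eln, elastin, had 39.9 and 33.7 CPM with carfilzomib and 141 and 140.4 CPM with vehicle. The 2 genes fell by 2.24 and 1.94 on the log2 scale. Ogn, a small proteoglycan also called mimecan, rose by 0.36. Of 18 partners of type IV collagen in the basement membrane 17 fell and 1 rose, with a median of -0.58. Lamb3, a laminin chain of epithelia, had 15.1 and 18.0 CPM with carfilzomib and 78.0 and 78.1 CPM with vehicle, and Lama1, a laminin chain of the embryo, fell by 1.17. Lama5, a laminin chain of mature basement membranes, had 339 and 339 CPM with carfilzomib and 205 and 210.2 CPM with vehicle, and its log2 fold change was 0.71 ± 0.04 (edgeR adjusted p = 1.08e-09). Lama5 and Col4a5 were thus the basement membrane chains of these lists that rose.

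Of 21 genes of TGF-beta signalling, the main inducer of collagen in fibroblasts, 14 fell, 3 rose and 4 missed the threshold (median -0.24). Ccn2, a matricellular target of the pathway, had 321 and 327 CPM with carfilzomib and 953 and 929 CPM with vehicle. Tgfb3, a ligand, had 166 and 161 CPM with carfilzomib and 375 and 386 CPM with vehicle. Their log2 fold changes were -1.54 ± 0.04 and -1.22 ± 0.04, and Tgfbr3, a co-receptor, rose by 0.33. Smad2, Smad3 and Smad4, which carry the signal to the nucleus and were picked after their values were seen, did not pass, at -0.09, -0.13 and -0.06. Of 12 transcription factors linked to collagen or matrix genes 7 fell, 4 rose and 1 did not pass (median -0.28). Egr1, an immediate early factor, fell by 1.15 and Tead4, a partner of YAP, fell by 0.98. Scx, scleraxis, a factor of tendon cells that drives type I collagen genes, rose by 0.83, at 18.2 and 19.0 CPM with carfilzomib and 10.2 and 10.8 CPM with vehicle, while both type I chains fell.

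**Figure D4:**
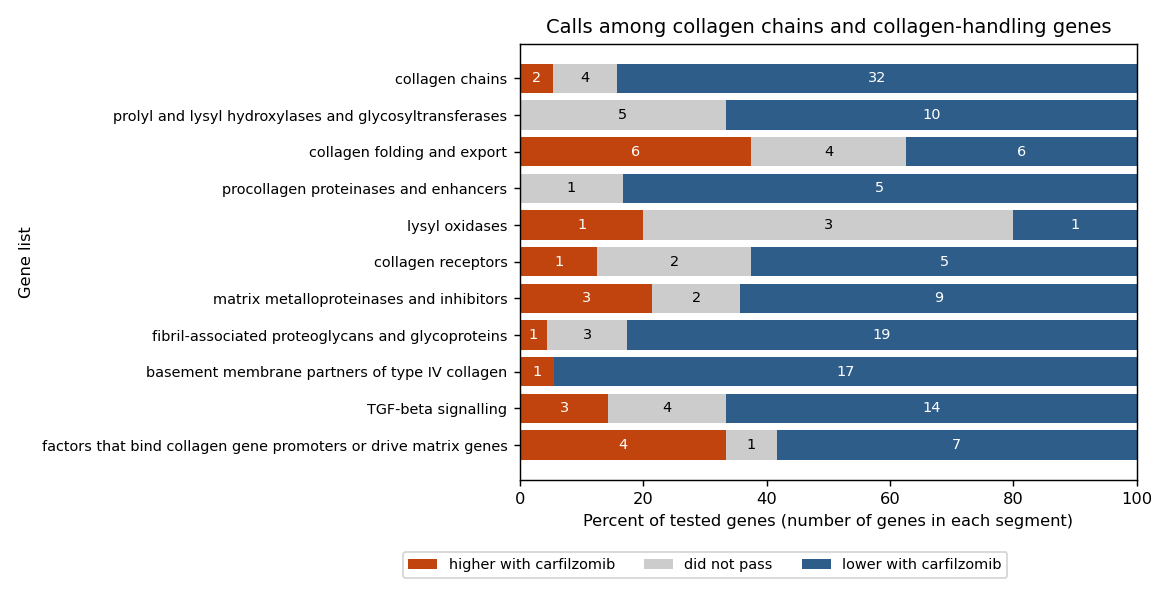
Share of tested genes called higher with carfilzomib, not past the test, or called lower, for the collagen chains and the 10 lists of collagen-handling genes; the number in each segment counts genes. The chains have 32 lower and 2 higher, while collagen folding and export has 6 lower and 6 higher.

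Markers of the cells that could supply collagen RNA were read in the same libraries, where again 30.1% of all genes tested were lower and 30.6% higher. Fibroblast markers without collagens summed to 4559 and 4650.1 CPM in the carfilzomib libraries, against 5712 and 5657 CPM in the vehicle libraries, a change of -19.0%, where the collagen sum changed by -42.8%. Summed per length, the same markers stood at 2901 and 3025 FPKM with carfilzomib and 2931 and 2912 FPKM with vehicle, a change of 1.42% with groups that overlapped, where the collagen sum in FPKM changed by -42.0%. That even sum combines falls and rises. Vim stood at 1024 and 1055 FPKM with carfilzomib, against 1233 and 1243 FPKM with vehicle. S100a4 stood at 560 and 597 CPM with carfilzomib, against 392 and 384 CPM with vehicle. In that unit Vim had 1770 and 1822 CPM with carfilzomib, against 2175 and 2203 CPM with vehicle. CPM are not per length, so they do not show how much of the FPKM sum S100a4 supplied. Of these 17 markers 12 fell, 2 rose and 3 did not pass, and the most abundant were Vim, at -0.29, and Lamc1, at -0.46, both of which other cells also express. Pdgfra and Tcf21, which mark cardiac fibroblasts, were at -0.35 and -0.36, and Thy1, a surface protein of fibroblasts and other cells, at -2.00; the 2 markers that rose are Gsn, at 0.32, and S100a4, at 0.57. These 5 were picked after their values were seen. Of these fibroblast markers Dcn, Lum, Ddr2, Postn, Fbln1, Mfap5, Lamc1 and Tcf21 also stand in the lists of collagen-handling genes. Smooth muscle and mural markers summed to 4840.3 and 4575 CPM in the carfilzomib libraries, against 6003 and 6270.1 CPM in the vehicle libraries, with 12 of 15 lower and 1 higher (median -0.96). Acta2, smooth muscle actin, which is also a mark of activated fibroblasts, fell by 2.11, and Des, which heart muscle also expresses, rose by 0.95. Endothelial markers summed to 638 and 617 CPM in the carfilzomib libraries, against 518 and 539 CPM in the vehicle libraries, of which Eng supplied most, with 4 of 13 lower and 3 higher. The sum was higher with carfilzomib while the median over these markers was -0.35; Eng was at 0.34 and Flt1 at -0.35.

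Macrophage markers were low, with 10 of 11 tested lower, 1 higher and sums of 57.4 and 52.1 CPM in the carfilzomib libraries, against 105 and 108 CPM in the vehicle libraries. Their median was -1.63; Lyz2 fell by 2.67 and Cd14 rose by 0.56. Schwann cell and neural crest markers summed to 24.2 and 22.1 CPM in the carfilzomib libraries, against 30.1 and 29.2 CPM in the vehicle libraries, with 1 of 7 lower (Ngfr, at -0.60, picked after its value was seen), and their most abundant members S100b and Mbp did not pass, at -0.30 and -0.31 (median -0.30). Epicardial and mesothelial markers summed to 194 and 197 CPM in the carfilzomib libraries, against 189 and 188 CPM in the vehicle libraries, with 3 of 10 lower and 4 higher (median 0.08), shares near those of all genes; Tbx18 did not pass, at -0.08, and Krt8 rose by 1.69. Cardiomyocyte markers fell in 17 of 18 cases (median -1.23), with Myh6 at -3.79 and Actc1 at -2.90. No marker in these 7 lists had 0 counts in every library, and what these cell types contribute to the collagen result was not tested.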

How the data were processed

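Per the file headers, the deposited expression table holds estimated counts of reads, not normalised, and FPKM for each gene; they are called estimated since about 29% of genes in a library have values with decimals (over 1e-06 off a whole number). The build was Rnor_6.0, and the tools named are HISAT, Bowtie2, featureCounts 1.6.0, FastQC 0.11.8, cutadapt 2.0, R 3.3.2 and DESeq2, per the submitters' processing notes. Their roles and the use of strand in counting were not given in the sources used here, so overlapping genes may share reads. The deposited table of the authors' comparison gives a log2 fold change, a p-value and a q-value per gene. Its columns, and those of the expression table, name a control, taken as vehicle, the only control in the labels; 10 columns were not used.

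Counts were rounded and tested in edgeR 4.0.16 (R 4.3.3) after filterByExpr (minimum count 10, minimum total 15) with TMM factors of 0.987 to 1.01. The chains of 10 CPM or more are named with their value in every library, then the called chains below that. From each list of collagen-handling genes come the 2 largest called changes in the more common direction and 1 in the opposite one, at 10 CPM or more, and from each marker list the 2 most abundant genes; a few others are named as examples or to complete a small list. Members and lists were chosen with earlier results of these data known. Of 245 list entries 241 were matched, 1 (Crtap, listed as Crtapl1) by gene ID. Replicates of a group differed by more than sampling noise (chi-square per degree of freedom 2.99 for carfilzomib and 3.32 for vehicle). The scripts were tested on simulated data. Alternatives were DESeq2 1.42.0, limma-voom (limma 3.58.1), RLE factors, library size alone, 2 other filters, a replicate block and each library left out. Promoters come from RefSeq (GRCr8), with 35 of 44 chains matched.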

Additional observations from a re-analysis of the deposited data

How the results depend on the processing

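Over the 11 settings tried for every chain (another test, other scaling or filters, the replicate block, and each library left out), 35 of 38 tested chains kept their call, and the exceptions are Col11a2, Col19a1 and Col20a1. Chains called lower numbered 29 under DESeq2, 30 to 31 with a library left out and 27 over chains without decimals, an alternative chosen after seeing the data; 2 were higher in each of these. All genes called numbered 3149 lower and 3340 higher under DESeq2, where edgeR gave 4372 lower and 4444 higher.

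The replicate block gave 32 lower and 2 higher chains and 4087 lower and 4150 higher genes in all, and it changed no chain's call. Same-numbered libraries did not deviate together (r = -0.0146 across genes, which are not independent replicates), so the numbers were not taken to pair libraries.

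With a library left out, the low-count filter was rerun, so the chains that enter a median can differ. The median was then -0.93 to -0.82 for all chains, -0.96 to -0.84 for fibrillar, -0.99 to -0.89 for beaded and -0.87 to -0.72 for FACIT chains. Library size alone gave medians of -0.59 for basement membrane chains, -0.88 for beaded chains and -0.35 for the collagen-handling genes. The beaded median was -0.89 with no low-count filter, -0.97 with the stricter one (1 CPM in 2 libraries and a total of 50) and -1.02 without chains with decimals, and the FACIT median was -0.83 with the stricter filter; in these, other members enter the median. The median of folding and export changed sign without carfilzomib replicate 2 (-0.00591) and without vehicle replicate 2 (-0.00415; over the 4 libraries left out it ranged from -0.00591 to 0.0605), and that of lysyl oxidases (-0.00459) when scaled by library size alone (0.0288), with no low-count filter (0.000305), without carfilzomib replicate 1 (0.0101) and without vehicle replicate 1 (0.00634); the cause was not tested. With 2 libraries a group and few reads, changes in the chains under 10 CPM carry the widest errors.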
